A study of Mus musculus with 2 samples.

Results

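The 10 genes described here carry the transforming growth factor beta (TGF-beta) signal in microglia, the resident macrophages of the brain: the ligand gene Tgfb1, its anchor gene Lrrc33, the receptor genes Tgfbr1 and Tgfbr2, the signal transducers Smad2, Smad3 and Smad4, and the inhibitors Smad7, Ski and Skil. They were chosen by name, as 10 of the 19537 genes with a row in the count matrices, and all 10 were measured in both. Their levels were read in 320 cells of microglia from PARK7/DJ-1 KO mice and in 1427 cells from wildtype littermates. A cell was a droplet barcode with at least 500 transcript molecules, counted by their unique molecular identifiers (UMIs), and at least 100 genes.

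All mice were adult and received a single intraperitoneal injection of LPS, a component of the bacterial outer membrane, and brains were taken 24 h later. The KO mice carry a gene-trap insertion in Park7 in every cell, on a C57BL/6NCrl background, so that the loss of Park7 is not limited to microglia, and no untreated library was used here. CD11b+CD45int cells were sorted and run on Drop-seq, a droplet method that counts the 3′ ends of transcripts. Each library, called KO LPS and WT LPS, pooled 2 mice, a female and a male, and there was 1 library per genotype. Hence no test between genotypes was possible, genotype and library cannot be told apart, and every interval below is a 95% interval that covers counting error only.

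TGF-beta is made as a latent complex, which LRRC33 tethers to the microglial surface until integrins release the active ligand. The ligand joins the type II receptor TGFBR2 to the type I receptor TGFBR1, which phosphorylates SMAD2 and SMAD3. These enter the nucleus with SMAD4 and switch genes on and off, while SMAD7 blocks the receptor and SKI and SKIL repress the Smad complex on DNA. In the adult brain this signal is known to keep microglia in their resting, homeostatic state.

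The KO LPS cells held 381305 UMIs with a median of 963.5 per cell, and the WT LPS cells held 1989011 UMIs with a median of 1065. Levels are given as UMIs per 1e6 UMIs of the cells (CPM), and in every pair of levels or counts KO LPS comes before WT LPS. Park7 was read by 1 UMI in KO LPS (2.62 CPM) and by 323 in the WT LPS library (162 CPM), as the labels say. The list of 12 microglial markers reached 34104 CPM in KO LPS against 25125 in WT LPS, with none of the 12 at 0 in either library. In these droplets, fewer cells with a transcript and less transcript per cell cannot be told apart from a summed level.

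Among the 10 genes, the largest log2 ratio was that of the type I receptor Tgfbr1, at 2119 CPM in KO LPS against 613 CPM in WT LPS, although Smad3 exceeded it in cells of at least 1000 UMIs (1.85 against 1.69), with free RNA subtracted (1.88 against 1.85) and in cells with Y-linked and no Xist UMIs, on 1 Smad3 UMI in KO LPS. As the plot of levels shows, the level was higher in KO LPS for all 10 genes, by any amount, except for Smad2 and Skil once free RNA was subtracted, for Skil without its 3 highest cells, and for Skil and Lrrc33 in the 12 KO LPS cells with Y-linked and no Xist UMIs. A gene of the whole matrix was higher in KO LPS by any amount in 51.3% of cases (9085 genes, each with 20 or more UMIs when the libraries are added). A level at least 2-fold higher was found for 4 of the 10 (Tgfbr1, Tgfbr2, Smad3 and Smad7), against 13.5% of all genes, and a level at least 2-fold lower for 0 of the 10, against 15.3%. These limits were applied to the log2 ratio with a prior count of 0.5. Of the 4, Tgfbr1 and Smad3 were past the limit in all alternatives run. Smad7 fell below it with free RNA subtracted (log2 ratio 0.75). Tgfbr2 fell below it in 6 alternatives, at 0.54 in cells with Y-linked and no Xist UMIs and at 0.90 to 0.98 with cells of at least 300 or 1000 UMIs, with the median of all genes set to 0, with the total taken without the 50 highest genes and without its 3 highest cells. The median log2 ratio, KO LPS over WT LPS, was 0.89 over the 10 and 0.03 over all 9085 genes, whose SD was 1.17. The interval of the ratio lay above 1 for 6 of the 10 genes, against 19.6% of all genes, and below 1 for 0 of the 10, against 18.7%. It held 1 for the other 4: Smad2, Smad4, Skil and Lrrc33.

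**Figure D1:**
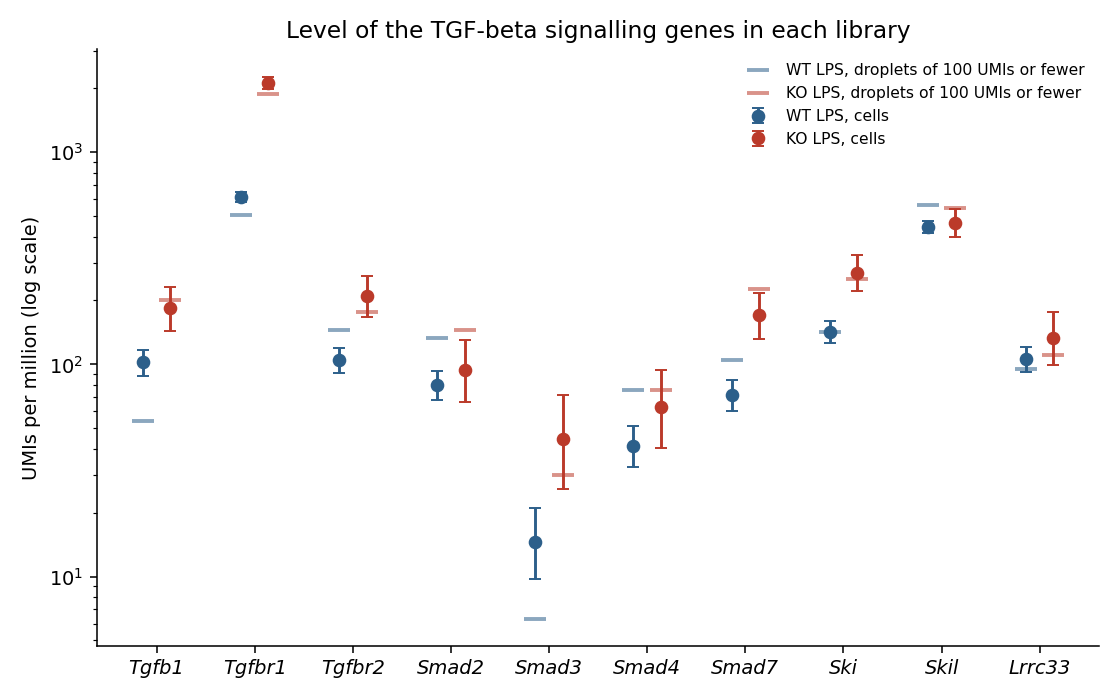
Level of each of the 10 genes in CPM (log axis); points are the summed cells of WT LPS (blue) and KO LPS (red) with exact 95% Poisson intervals, and dashes are droplets of 100 UMIs or fewer of the same library. Tgfbr1 stands highest in both libraries, at 2119 in KO LPS against 613 in WT LPS, and its intervals are far apart, while those of Skil overlap.

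Both receptor genes had levels at least 2-fold higher in KO LPS, as had Smad3 and Smad7. Of these, only the upstream windows of the receptor genes are shown. They are the 250 bases before the annotated start in the RefSeq promoter table (build GRCm38.p6), written 5′ to 3′ on the strand of the gene, with the Smad box in capitals. The box is CAGAC on either strand, the short motif that Smad proteins are known to bind. Tgfbr1 lies on the plus strand (window chr4:47352972-47353221) and Tgfbr2 on the minus strand (window chr9:116175364-116175613).
Tgfbr1: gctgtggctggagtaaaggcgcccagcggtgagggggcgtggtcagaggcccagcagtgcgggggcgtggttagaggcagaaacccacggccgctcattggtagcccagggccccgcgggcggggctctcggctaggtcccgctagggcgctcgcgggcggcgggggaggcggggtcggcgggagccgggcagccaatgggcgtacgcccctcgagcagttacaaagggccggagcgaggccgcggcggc
Tgfbr2: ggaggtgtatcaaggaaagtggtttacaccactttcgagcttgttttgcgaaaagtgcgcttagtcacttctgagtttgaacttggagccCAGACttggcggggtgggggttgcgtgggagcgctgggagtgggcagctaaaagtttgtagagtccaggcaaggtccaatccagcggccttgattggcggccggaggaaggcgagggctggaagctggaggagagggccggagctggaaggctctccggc

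The Tgfbr2 window held 1 box, which begins 160 bases before the start, and the Tgfbr1 window at the gene start held 0. The table lists another Tgfbr1 window (chr4:47385966-47386215), within the gene, which held 1 box, beginning 203 bases before the start of its transcript. The Lrrc33 window held 1 box, at 177 bases before the start, and the windows of Tgfb1, Smad3 and Ski held 0. Of all 32851 windows of this length in the table, 42.2% held at least 1 box. These are matches of letters only. The table has windows for 6 of the 10 genes: the receptors, Tgfb1, Smad3, Ski and Lrrc33, listed there as Nrros.

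Of the ligand and its anchor, the ligand gene showed the larger difference. Tgfb1 (chromosome 7, 25687002 to 25705077) encodes the TGF-beta form that microglia themselves make. It was read by 70 UMIs in KO LPS against 203 in WT LPS, or 184 CPM (143 to 232) and 102 CPM (88.5 to 117). The level was 1.80-fold higher in KO LPS (interval 1.35 to 2.37), and the intervals of the levels did not overlap. Lrrc33 (chromosome 16, 32142785 to 32165594, under the symbol Nrros) was read by 51 and 210 UMIs, or 134 CPM (99.6 to 176) and 106 CPM (91.8 to 121). Its ratio was 1.27 (0.914 to 1.73), so that these counts could not show a difference.

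The type I receptor gene Tgfbr1 (chromosome 4, 47353222 to 47414926) had the highest level of the 10 genes in both libraries. It gave 808 UMIs in KO LPS against 1220 in WT LPS, or 2119 CPM (1975 to 2270) and 613 CPM (579 to 649). This is a 3.45-fold higher level in KO LPS (3.16 to 3.78), a log2 ratio of 1.79, above that of 96.7% of all 9085 genes. Ranked by level among all genes, Tgfbr1 stood at place 25 in KO LPS against at place 160 in WT LPS.

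Transcripts of the type II receptor gene Tgfbr2 (chromosome 9, 116087695 to 116175363) were far scarcer. There were 80 UMIs in KO LPS against 208 in WT LPS, or 210 CPM (166 to 261) and 105 CPM (90.8 to 120), a ratio of 2.01 (1.53 to 2.61). The 2-fold limit runs through this interval. For each Tgfbr2 UMI there were 10.1 Tgfbr1 UMIs in KO LPS against 5.87 in WT LPS, so that the balance of the receptor transcripts differed between the libraries by 1.72-fold (1.30 to 2.29).

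Tgfbr1 also made up a larger part of the 10 genes' own UMIs in KO LPS, 56.5% against 35.6% in WT LPS. The other 9 genes together reached 1634 CPM (1508 to 1767) in KO LPS against 1108 CPM (1062 to 1155) in WT LPS, a ratio of 1.48 (1.35 to 1.61). The odds that a UMI of the 10 genes was one of Tgfbr1 were 2.34 times those in WT LPS (2.06 to 2.66). Both the receptor and the rest were thus higher in KO LPS, by unequal factors.

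Among the signal transducers, Smad3 had the largest ratio on the fewest UMIs. Smad3 (chromosome 9, 63646766 to 63757994) was read by 17 UMIs in KO LPS against 29 in WT LPS, or 44.6 CPM (26.0 to 71.4) and 14.6 CPM (9.76 to 20.9). The ratio of 3.06 had a wide interval of 1.58 to 5.75. Its close relative Smad2 (chromosome 18, 76241090 to 76311748), the other receptor-activated Smad of this pathway, gave 36 and 159 UMIs, or 94.4 CPM (66.1 to 131) and 79.9 CPM (68.0 to 93.4). The Smad2 ratio was 1.18 (0.799 to 1.70). In both libraries Smad2 was the more abundant of the pair by UMIs, which count transcript ends and were not divided by transcript length.

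Smad4 (chromosome 18, 73634790 to 73703791), the partner shared with the BMP branch, was read by 24 UMIs in KO LPS against 82 in WT LPS. Its levels were 62.9 CPM (40.3 to 93.7) and 41.2 CPM (32.8 to 51.2), a ratio of 1.53 (0.926 to 2.43). No difference could be detected for Smad4 and Smad2 at these counts, and an increase of 1.70-fold for Smad2 and 2.43-fold for Smad4 lies within their intervals.

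The inhibitors differed among themselves. Smad7 (chromosome 18, 75367365 to 75395935), an inhibitor that is itself switched on by TGF-beta, gave 65 UMIs in KO LPS against 143 in WT LPS, or 170 CPM (132 to 217) and 71.9 CPM (60.6 to 84.7). The ratio was 2.37 (1.74 to 3.20). Ski (chromosome 4, 155154075 to 155222535) gave 103 and 284 UMIs, or 270 CPM (220 to 328) and 143 CPM (127 to 160), a ratio of 1.89 (1.50 to 2.38). For both of these the intervals of the levels lay apart.

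Skil (chromosome 3, 31095058 to 31122923) encodes SnoN, a homologue of SKI, and behaved differently. Its 177 UMIs in KO LPS against 885 in WT LPS amounted to 464 CPM (398 to 538) and 445 CPM (416 to 475). The ratio was 1.04 (0.883 to 1.23), and its upper bound lay below the lower bound of Ski. Skil was the gene with the second highest level of the 10 in both libraries.

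**Figure D2:**
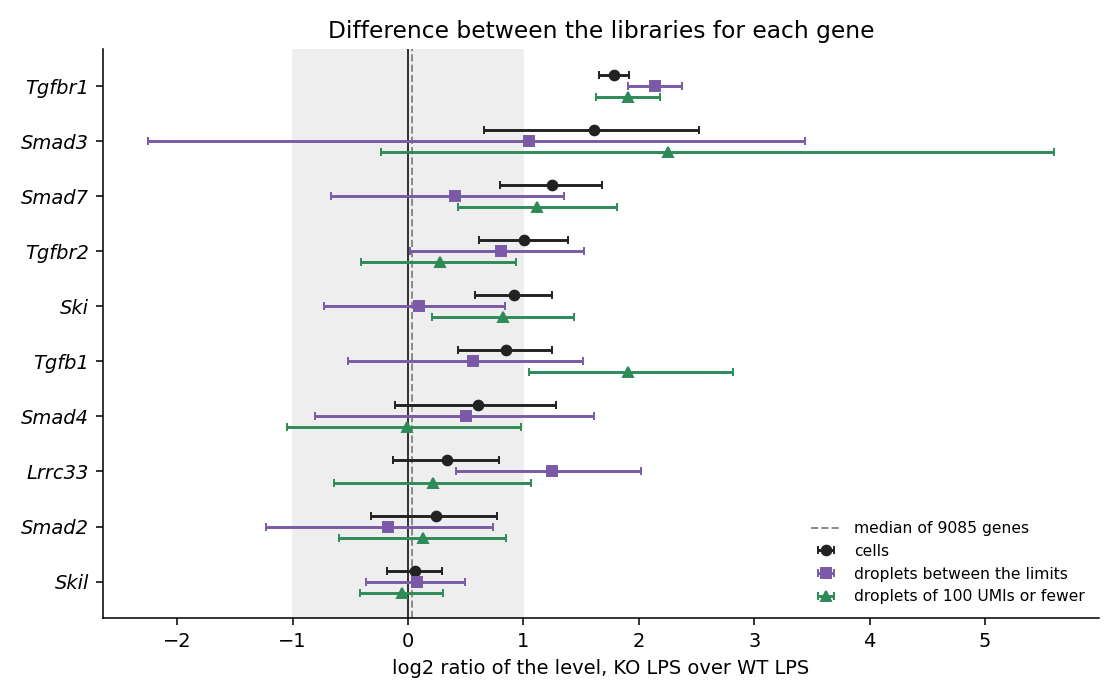
Log2 ratio of the level, KO LPS over WT LPS, for each gene in cells (circles), in droplets between the limits for free RNA and for cells (squares) and in droplets of 100 UMIs or fewer (triangles), with exact conditional 95% intervals. The grey band spans ratios under 2-fold, and Tgfbr1 lies beyond it in all 3 sets of droplets, at ratios of 3.45, 4.40 and 3.74.

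By level, the order in WT LPS was Tgfbr1, Skil, Ski, Lrrc33, Tgfbr2, Tgfb1, Smad2, Smad7, Smad4 and Smad3. The intervals of neighbours overlapped from Lrrc33 to Smad7. In KO LPS the same 3 genes led and Smad4 and Smad3 came last, but the middle ran Tgfbr2, Tgfb1, Smad7, Lrrc33 and Smad2. There, neighbours overlapped from Ski down to Smad3.

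Of the 10 genes, 5 lie over annotated genes of the opposite strand, so their counts are uncertain if counting ignored the strand, which was not given in the sources used here. In the GENCODE annotation, long non-coding RNA genes overlap Tgfbr1, Tgfbr2, Smad4, Skil and Lrrc33, and a processed pseudogene also overlaps Smad4. Tgfb1, Smad2, Smad3, Smad7 and Ski have no overlapping gene there.

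Free RNA, which droplets take up without a cell, carried the same genes. The droplets of 100 UMIs or fewer held 198723 UMIs in KO LPS against 315748 UMIs in WT LPS, there in fewer droplets. The free RNA sets of the libraries are thus not alike in depth per droplet. In the droplets of 100 UMIs or fewer, 9236 in KO LPS against 4270 in WT LPS, Tgfbr1 stood at 1882 CPM (1696 to 2083) and 504 CPM (428 to 588), a ratio of 3.74 (3.10 to 4.53). Tgfb1 stood at 201 CPM and 53.8 CPM there, a ratio of 3.74 (2.07 to 7.03), Smad7 at a ratio of 2.17 (1.35 to 3.50) and Ski at 1.77 (1.16 to 2.70). These were the 4 genes whose interval lay above 1 in free RNA, against 11.4% of all 9085 genes. In the droplets between the limits for free RNA and for cells, the interval lay above 1 for 3 of the 10 (Tgfbr1, Tgfbr2 and Lrrc33), against 12.3% of all genes. Free RNA in these libraries was itself rich in microglial transcripts, with the microglial list at 31033 CPM in KO LPS against 15094 CPM in WT LPS.

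The share of cells in which a gene was seen was also read. Each cell was thinned to 500 UMIs, so that depth was equal. Tgfbr1 was then seen in 63.6% of KO LPS cells (58.0 to 68.9) and in 25.4% of WT LPS cells (23.2 to 27.8). Without thinning the shares were 82.8% and 47.9%. In 1 random thinning, 87 of the 320 KO LPS cells held at least 2 Tgfbr1 UMIs (27.2%), against 65 of the 1427 WT LPS cells (4.56%).

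Every other gene was seen in a minority of cells at this depth. Skil was seen in 20.5% of KO LPS cells (16.2 to 25.4) and 19.9% of WT LPS cells (17.9 to 22.1), and Ski in 13.2% (9.70 to 17.4) and 7.36% (6.06 to 8.84). Tgfbr2 was seen in 9.53% (6.54 to 13.3) and 5.15% (4.07 to 6.43), and Tgfb1 in 9.07% (6.16 to 12.8) and 4.35% (3.35 to 5.54). Smad7 was seen in 7.42% (4.80 to 10.9) and 3.53% (2.63 to 4.62). The intervals of the libraries lay apart, with KO LPS higher, for 5 genes, Tgfbr1, Ski, Tgfbr2, Tgfb1 and Smad7, against 5.75% of all 9085 genes, while for Skil they overlapped.

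The remaining 4 genes were seen in few cells. Lrrc33 was at 5.86% of KO LPS cells and 5.22% of WT LPS cells, Smad2 at 4.06% and 3.61%, Smad4 at 3.34% and 2.04%, and Smad3 at 2.23% and 0.794%. Their intervals overlapped between the libraries. Without thinning, the difference of the shares, KO LPS minus WT LPS, turned to -1.28 percentage points for Skil (37.2% against 38.5%) and to -0.43 for Smad2 (8.75% against 9.18%). In the cells with Y-linked and no Xist UMIs it turned to -11.2 for Skil and -4.25 for Lrrc33. Ski (26.2% against 16.7% unthinned), Tgfbr2 (20.9% against 13.03%), Tgfb1 (19.1% against 11.8%), Smad7 (15.6% against 8.62%), Lrrc33 (13.4% against 12.8%), Smad4 (6.88% against 5.05%) and Smad3 (5% against 1.89%) kept the higher share in KO LPS without thinning.

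These shares are to be set against free RNA alone. A droplet of 500 UMIs drawn only from the free RNA of KO LPS would hold a Tgfbr1 UMI in 61.0% of cases, and one from WT LPS in 22.3%. In KO LPS the share of cells did not exceed the free RNA share beyond its interval for any of the 10 genes. In WT LPS it did so for 3, Tgfbr1, Tgfb1 (free RNA share 2.66%) and Smad3 (0.316%). In KO LPS the free RNA was close to the cells in microglial content, with the microglial list at 31033 CPM in free RNA and 34104 CPM in cells. Shares at or below the free RNA share therefore cannot tell free RNA from a cell's own transcripts. A UMI in a given KO LPS cell does not by itself show that this cell expressed the gene.

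**Figure D3:**
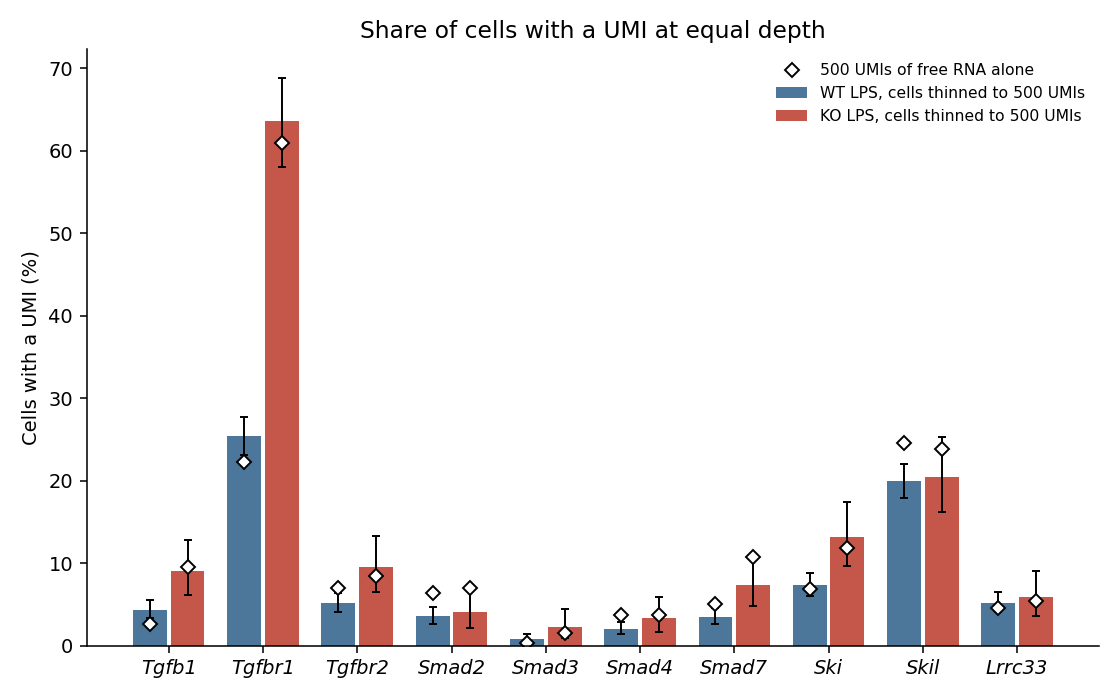
Share of cells (%) with at least 1 UMI of each gene after thinning every cell to 500 UMIs, for WT LPS (blue) and KO LPS (red), with exact 95% Clopper-Pearson intervals; diamonds give the share that 500 UMIs of the library's free RNA would give. Tgfbr1 reaches 63.6% in KO LPS against 25.4% in WT LPS, with diamonds at 61.0% and 22.3%.

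If the UMIs of each gene were spread evenly over the cells, 66.3% of KO LPS cells and 26.4% of WT LPS cells would hold a Tgfbr1 UMI. The interval of the observed share held the evenly spread share for all 10 genes in both libraries. This concerns cells with at least 1 UMI. In the same random thinning, the variance of the UMIs per cell over their mean was 1.22 in KO LPS against 1.20 in WT LPS for Tgfbr1, and 1.62 against 1.10 for Smad2. In the same random thinning, 51 of 320 KO LPS cells (15.9%) and 643 of 1427 WT LPS cells (45.1%) held no UMI of any of them. Both receptor transcripts were seen in 18 KO LPS cells (5.62%) and 17 WT LPS cells (1.19%), near the 6.04% and 1.28% that the product of the separate shares gives.

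The rest of the pathway was read from lists of named genes, taken apart by role. Of 46 further genes with at least 20 UMIs in the lists of ligands and latency, receptors, Smads and partners, inhibitors, the Smad-independent branch and the activin and BMP branch, 37 were higher in KO LPS by any amount (80.4%, against 51.3% of all 9085 genes). Their median log2 ratio was 0.63. At least 2-fold higher were 10 (21.7%, against 13.5% of all genes). At least 2-fold lower with the prior count were 5 (10.9%, against 15.3%), namely Mmp14, Dab2, Hgs, Id2 and Id1, the last at 0 UMIs in KO LPS.

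Around the ligand, integrin and protease genes differed in direction. Itgb5 and Itgav, which encode chains of integrins that bind latent TGF-beta, were at 674 against 406 CPM and at 149 against 89.0 CPM in KO LPS and WT LPS. Mmp14, a membrane protease able to release the ligand, was lower in KO LPS, at 42.0 CPM against 179 CPM (ratio 0.234, interval 0.132 to 0.385). Tgfb2 gave 4 UMIs in all and Itgb8 3, while Tgfb3, Ltbp1, Ltbp4, Lrrc32 and Itgb6 had none in the cells of either library. The ligand measured here was therefore almost wholly Tgfb1.

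Of the other receptor genes, Eng, a co-receptor best known from endothelial cells, had 36 UMIs in KO LPS against 51 in WT LPS, or 94.4 and 25.6 CPM (ratio 3.68, 2.33 to 5.75). The endothelial markers were also higher in KO LPS, at 86.5 against 15.1 CPM over the list of 5, of which 1 was at 0 in each library; their part in this was not tested. Dab2, an adaptor that links the receptors to endocytosis and to the Smads, went the other way, at 31.5 CPM in KO LPS against 362 CPM in WT LPS, 11.5-fold lower (6.55 to 22.4). Dab2 had the lowest log2 ratio of its list.

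Among the Smad partners, the acetyltransferase genes Crebbp (291 against 150 CPM, ratio 1.94, 1.54 to 2.42) and Ep300 (194 against 120 CPM, ratio 1.62, 1.23 to 2.10) were higher in KO LPS. Trim33, a SMAD4 ubiquitin ligase, had the highest ratio of this list outside the 10 genes, 1.97 (1.39 to 2.75). Zeb2, a Smad-binding repressor, was at 1220 against 1003 CPM (1.22, 1.10 to 1.35). Runx1 and Rnf111 had intervals that held 1, at ratios of 1.01 and 0.885. Of 11 genes on this list, 1 (Smad3) was at least 2-fold higher, a share no larger than the 13.5% of all genes, and 0 were at least 2-fold lower, against 15.3%.

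On the inhibitor list, 5 of 13 genes were at least 2-fold higher in KO LPS, against 13.5% of all genes, and 0 at least 2-fold lower, against 15.3%. Pmepa1, itself a TGF-beta target that keeps SMAD2 and SMAD3 from the receptor, had 286 UMIs in KO LPS against 298 in WT LPS, or 750 CPM (666 to 842) and 150 CPM (133 to 168). Its level was 5.01-fold higher (4.24 to 5.91), and it was 2.33-fold higher in free RNA. The others were Smad7, Smurf1 (3.16, 1.72 to 5.68), Bcor (2.48, 1.36 to 4.38) and Nedd4l (1.96, 0.627 to 5.26), which reaches the 2-fold limit only with the prior count and whose interval held 1. Smurf2 and Usp15, a ubiquitin ligase and a deubiquitinase of the receptor complex, were at ratios of 0.860 and 1.02, with intervals that held 1.

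The Smad-independent branch passes the signal through the kinase TAK1. Tab2, which encodes a TAK1-binding protein, was at 409 CPM in KO LPS against 190 CPM in WT LPS (2.15, 1.77 to 2.60). Pik3r1 was at 454 and 348 CPM (1.30, 1.10 to 1.54), and Rhoa at 144 and 198 CPM (0.728, 0.539 to 0.967). This list had 1 of 7 genes at least 2-fold higher, near the 13.5% of all genes, and 0 at least 2-fold lower, against 15.3%.

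In the related activin and BMP branch, genes differed in both directions. Smad5, a Smad of the BMP branch, was at 76.1 against 35.2 CPM (2.16, 1.35 to 3.38), and the receptor genes Acvr1 (3.68) and Acvr2b (4.47) were also past the 2-fold limit, while Smad1 (1.996) reaches it only with the prior count. The receptor gene Bmpr1a was at a ratio of 1.83 (1.05 to 3.05), and Acvr1b (1.35), Acvr2a (1.43) and Bmpr2 (1.41) had intervals that held 1. Id2, a target gene of BMP signalling, was 7.01-fold lower in KO LPS (4.14 to 12.9), at 36.7 against 257 CPM. Id1, another such target, was read by 22 UMIs in WT LPS and by none in KO LPS, where a floor of 3 counts makes it at least 1.41-fold lower.

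Genes that TGF-beta switches on in many cell types differed in both directions. Of 6 with at least 20 UMIs, 3 were at least 2-fold lower in KO LPS, against 15.3% of all genes, and 1 at least 2-fold higher, against 13.5%, with a median log2 ratio of -1.10. Tgfbi, named for its induction by TGF-beta, was read by 7 UMIs in KO LPS against 302 in WT LPS, or 18.4 and 152 CPM, 8.27-fold lower (3.97 to 20.7). The others were Klf10 (ratio 0.331, 0.0875 to 0.891) and Cdkn1a (0.332, 0.156 to 0.627). Jun was at 789 against 726 CPM (1.09, 0.956 to 1.23), Junb at 205 against 349 CPM (0.586, 0.458 to 0.742), and Pdgfb at 94.4 against 44.2 CPM (2.13, 1.41 to 3.18). Several of these genes are also known from the inflammatory response, whose genes were lower in KO LPS as well; their part in this was not tested.

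The genes that microglia are known to need TGF-beta for were mostly higher in KO LPS. Of 20, 10 were at least 2-fold higher (13.5% of all 9085 genes were), 0 were at least 2-fold lower (15.3% of all genes) and 17 were higher by any amount (51.3% of all genes), with a median log2 ratio of 0.96. P2ry12, a purinergic receptor of resting microglia, was at 3837 against 406 CPM (9.46, 8.67 to 10.3), Gpr34 at 1639 against 204 CPM and Siglech at 1993 against 340 CPM. Sall1, a transcription factor that defines microglia, was at 386 against 109 CPM (3.53, 2.85 to 4.38). The lowest was C1qa, a complement gene, at 2840 against 5298 CPM (0.536, 0.503 to 0.571). The medians of the general targets and of the microglial targets of TGF-beta thus lay on opposite sides of 0, as the plot by list shows. The general list held only 6 genes with at least 20 UMIs. Smad7 and Pmepa1, also TGF-beta targets, were listed as inhibitors instead, at log2 ratios of 1.25 and 2.32. The general median therefore holds only for the list as drawn up.

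**Figure D4:**
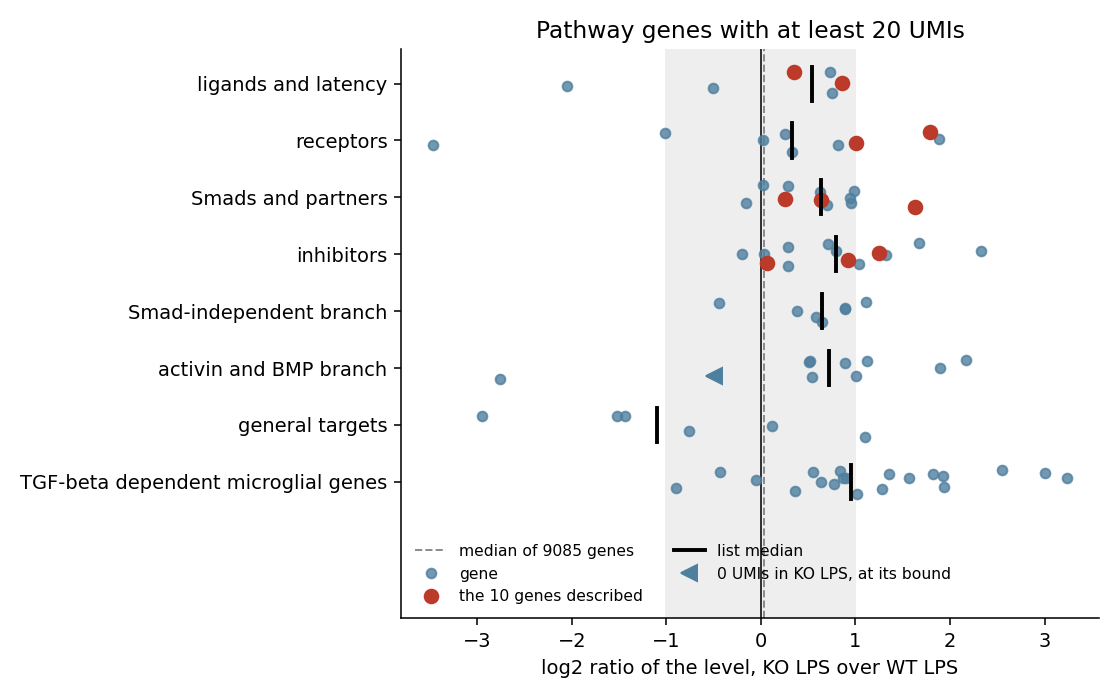
Log2 ratio of the level, KO LPS over WT LPS, of every pathway gene with at least 20 UMIs, by list; red points are the 10 genes described, bars are list medians, the triangle is Id1 at the bound given by 3 counts, and the grey band spans differences under 2-fold. The general targets have their median at -1.10 and the TGF-beta dependent microglial genes at 0.96.

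The inflammatory response differed between the libraries by more than the TGF-beta genes did. A list of 24 inflammatory genes summed to 837 CPM in KO LPS against 9893 CPM in WT LPS. Cells were therefore put into ranges by their UMIs of this list after thinning to 500 UMIs, to read the 10 genes within a library. In WT LPS, 694 cells had 0 to 2 such UMIs, 330 had 3 to 4 and 403 had at least 5. In KO LPS, 312 of the 320 cells were in the lowest range, so that the comparison rests on WT LPS. The ranges are cuts of a continuous score, with 430 WT LPS cells within 1 UMI of the lower limit.

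Within WT LPS, Tgfbr1 was lower in cells with more inflammatory UMIs. Its level was 718 CPM (665 to 775) in the lowest range, 585 CPM (516 to 659) in the middle and 480 CPM (427 to 537) in the highest. With the inflammatory UMIs taken out of the totals, the highest range stood at 0.680 of the lowest (0.591 to 0.781), and in the cells thinned to 500 UMIs at 0.707 (0.553 to 0.897). The same lowest range in KO LPS, which holds 97.5% of its cells against 48.6% of those of WT LPS, stood at 2135 CPM (1989 to 2288). The ranges are not matched for inflammatory UMIs between the libraries, and the part of the inflammatory response in the difference was not tested.

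Skil ran in the other direction. Its level was 407 CPM (366 to 450), 452 CPM (392 to 519) and 496 CPM (442 to 554) from the lowest to the highest range, a ratio of 1.24 (1.06 to 1.45). For the other 8 genes the interval of the ratio of the highest to the lowest range held 1. The interval lay below 1 for 1 of the 10 genes, against 7.21% of the 9063 genes outside the inflammatory list, and above 1 for 1 of the 10, against 7.43%. Smad3 had 10, 15 and 4 UMIs in the 3 ranges, too few to read an order. Outside the 10 genes, Pmepa1 was lower in the highest range, at a ratio of 0.516 (0.371 to 0.707). Mmp14 (1.44, 1.13 to 1.83), Tgfbi (1.36, 1.05 to 1.76) and Dab2 (1.19, 1.00 to 1.42) were higher in it, though in the thinned cells their intervals held 1, while the sum of the TGF-beta dependent microglial genes was at 0.994 (0.974 to 1.02).

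**Figure D5:**
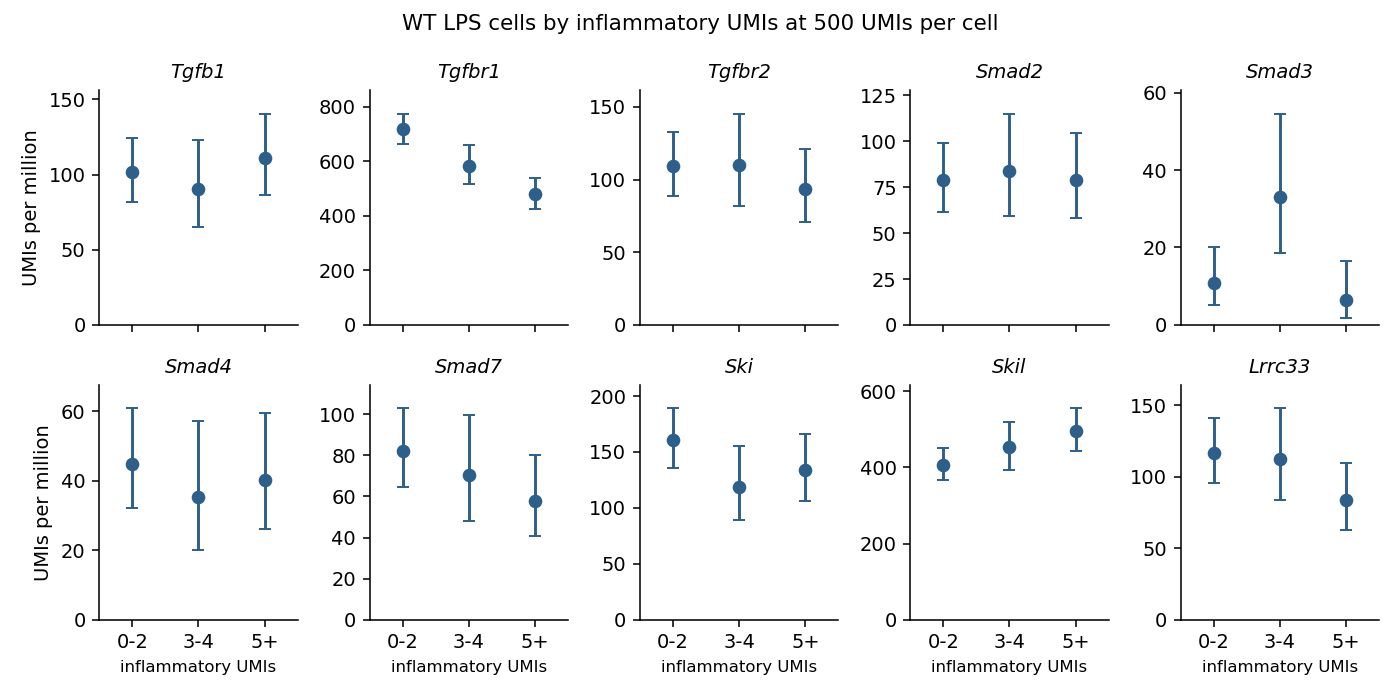
Level of each gene (CPM) in WT LPS cells with 0 to 2, 3 to 4 and at least 5 inflammatory UMIs per 500 UMIs, with exact 95% Poisson intervals. Tgfbr1 runs from 718 to 480 and Skil from 407 to 496, and the intervals of the lowest and the highest range lie apart for Tgfbr1 and overlap for the other 9 genes, Skil included.

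Each library pooled a female and a male mouse, which allowed a look within sex. Cells with a UMI of Xist and none of a Y-linked gene, taken to be mostly from the female, numbered 200 in KO LPS against 565 in WT LPS. In these, Tgfbr1 stood at 2183 CPM (2008 to 2370) and 561 CPM (510 to 615), a ratio of 3.89 (3.44 to 4.42), and the sum of the 10 genes at 3830 against 1675 CPM (2.29, 2.11 to 2.48). Cells with a Y-linked UMI and no Xist numbered 12 in KO LPS against 195 in WT LPS. There, Tgfbr1 stood at 2146 CPM (1458 to 3046) and 673 CPM (585 to 772), a ratio of 3.19 (2.11 to 4.66), and the sum at 3946 against 1789 CPM (2.21, 1.65 to 2.90). The receptor was higher in KO LPS in both sets of cells. The ratio of Ski was 1.47 (1.07 to 2.01) in the cells with Xist and 5.07 (2.27 to 10.3) in those with Y-linked UMIs, on 61 and 10 KO LPS UMIs, a difference that was not tested. Its difference in the share of cells was 2.94 and 25.5 percentage points, against 5.85 over all cells. The 12 KO LPS cells of the Y-linked set held 10 UMIs or fewer of each gene other than Tgfbr1. Both kinds of UMI were found in 9 KO LPS and 80 WT LPS cells, and neither in 99 and 587, so that the split is not clean. The balance of the Xist set and the Y-linked set differed between the libraries. Its part in the values over all cells was not tested.

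Markers of other cell types differed between the libraries, also of types that a CD11b+CD45int gate would be expected to remove, such as choroid plexus, astrocytes and endothelial cells. The 5 choroid plexus markers summed to 2119 CPM in KO LPS against 14.6 CPM in WT LPS, with 1 at 0 in each library, and to 855 and 117 CPM in free RNA. The 7 astrocyte markers summed to 406 and 180 CPM, with 1 at 0 in each. The 6 border macrophage markers were at 62.9 and 40.2 CPM, with 5 of them at 0 in KO LPS, and the 5 monocyte markers at 23.6 and 10.1 CPM. The 6 neutrophil markers were at 0 CPM in KO LPS against 68.4 in WT LPS. The B cell, oligodendrocyte and neuron lists were at 99.7 against 58.3, 73.4 against 53.8 and 55.1 against 65.4 CPM, and the T or NK and erythroid lists at 0 CPM in KO LPS and at most 2.01 CPM in WT LPS. Some lists were measured in part: 1 of 5 T or NK markers and 3 of 5 monocyte markers had a row in the matrices. The same held for 5 of 6 neutrophil, 3 of 4 B cell and 5 of 6 oligodendrocyte markers. At least 3 UMIs of such markers were found in 35 KO LPS cells (10.9%) and 73 WT LPS cells (5.12%).

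Without those cells all 10 genes were still higher in KO LPS, and the same number, 4, was at least 2-fold higher. The log2 ratio of Tgfbr1 was then 1.86, that of Tgfbr2 1.02, that of Smad3 1.64 and that of Smad7 1.10. The remaining cells could hold fewer than 3 UMIs of such markers each, whose part in these values was not tested.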

How the data were processed

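The authors deposited 1 matrix of raw counts per library, that is UMIs per gene and barcode without normalisation, with 9999 barcodes each and no filter for cells. Genes listed in only 1 library were missing in the other and were read as 0. The submitters' processing notes name bcl2fastq 2.0 and STAR, and the builds mm9 and mm10 with no role; the counting program and its use of strand were not given in the sources used here. Coordinates are those of RefSeq on GRCm38.p6, and overlapping genes come from GENCODE. All barcode columns matched a library by name. The libraries shared 11 barcodes, of which 0 were cells in both.

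In Python 3.11.15, with scipy 1.17.1, numpy 2.4.6 and pandas 2.3.3 (figures with matplotlib 3.10.9), UMIs were summed over cells (at least 500 UMIs and 100 genes) and divided by the total. Intervals were exact: Poisson for levels, conditional binomial for ratios, Clopper-Pearson for shares. UMIs mark molecules, but the intervals cover counting error only. Cells are not replicates and no test was run. Log2 ratios used a prior count of 0.5, also in the counts of genes at least 2-fold apart. Thinned shares are expectations over all draws of 500 UMIs. Free RNA was read in barcodes of 100 UMIs or fewer. Doublets were left in; the alternatives included removal of the 5% deepest cells. The ratio and thinning steps were tested on simulated data.

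The 10 genes and all lists were chosen with earlier results of these data known. Named from each list were the genes with the highest and the lowest log2 ratio among those with at least 50 UMIs, and any with at least 200; further genes that spell out a count of 5 or fewer (Klf10, Cdkn1a, Smurf1, Bcor, Nedd4l, Hgs, Smad1, Acvr1, Acvr2b and Id1), the other activin and BMP receptor genes and the ligand genes at or near 0 UMIs were named after their values were seen. In the list of general targets, 1 gene is not reported here and was left out of its counts and median.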

Additional observations from a re-analysis of the deposited data

Results flagged for a closer look

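Droplets with more than 100 UMIs that fell short of the limits for a cell, 443 in KO LPS and 4302 in WT LPS, entered no comparison of cells. In 3 of the 10 genes their level was higher in KO LPS with an interval above 1, against 12.3% of all 9085 genes. The ratio was 4.40 for Tgfbr1 (3.74 to 5.17, on 246 and 405 UMIs), 2.37 for Lrrc33 (1.34 to 4.05, on 19 and 58 UMIs) and 1.75 for Tgfbr2 (1.02 to 2.87, on 20 and 83 UMIs). For Lrrc33 the ratio in cells was 1.27, with an interval that held 1. With 1 library per genotype these values have no replicate check.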

How the results depend on the processing

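Without replicate libraries every value rests on 1 library per genotype. No paired analysis was possible because each group has 1 library. Tgfbr1 kept a log2 ratio of 1.69 to 1.96 over 12 alternatives. The count of the 10 genes at least 2-fold higher, 4, ran from 3 to 6, while the share of all genes ran from 9.02% to 21.6%. The set that moved most was cells with Y-linked and no Xist UMI, with 12 KO LPS cells. There, 2 of the 10 genes, Skil and Lrrc33, were at least 2-fold lower with the prior count, on 2 and 0 KO LPS UMIs that are at or under the floor of 3 counts, against 28.1% of all genes. The log2 ratio of Smad3, on 1 KO LPS UMI, was 3.67, and the medians were 1.56 for the 10 genes, 1.44 for Smads and partners (0.63 in all cells), 1.86 for inhibitors (0.80), -0.93 for the activin and BMP branch (0.72), 1.12 for TGF-beta dependent microglial genes and -0.31 for the general targets. With free RNA subtracted (a share of at most 49.7% for KO LPS against 12.4% for WT LPS), the median of the microglial genes was 1.09 and that of the general targets -0.75, Smad2 stood at a log2 ratio of -0.71, Skil at -0.20 and Smad7 at 0.75. The free RNA shares came from the neuron list in KO LPS and from the choroid plexus list in WT LPS. The libraries were thus corrected by unlike markers and by unequal amounts. With the 3 cells highest for each gene left out, an alternative chosen after seeing the data, Skil stood at -0.03. The median of the general targets was -0.76 over genes with at least 100 UMIs. Scaling to other totals moved the median of all genes by less than 0.1. Of 120 values for single genes' ratios under an alternative, 106 moved by less than their counting interval, as did 34 of 40 values for shares of cells. Smad3, Smad4 and Smad2 are limited by depth, at 46, 106 and 195 UMIs in all.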
